A study of Mus musculus with 45 samples.

Results

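The Hoxa cluster was followed in neuroepithelial organoids of R1 mouse embryonic stem (ES) cells, an established wild-type line, with and without retinoic acid (RA). All rows of the count table with the symbols Hoxa2, Hoxa3, Hoxa4, Hoxa5, Hoxa6, Hoxa7, Hoxa9, Hoxa10 and Hoxa13 were taken, which are 9 of 54532 genes. Cells were grown clonally in Matrigel in N2B27, a serum-free medium that allows neural differentiation, and organoids were collected on day 2, before treatment. The remaining organoids were kept in N2B27 alone (untreated) or in N2B27 with 250 nM all-trans RA (RA-treated) and collected 8 h, 18 h and 30 h later and then at intervals of 12 h up to 78 h. The sample protocol gives the dose in micromolar units, lists day 2 as 0 h without an 8 h point, and has slightly later hours for the last 2 collections; the dose and times of the methods and sample titles are used here. Each of the 15 groups had 3 biological replicates, which gave 45 polyadenylated RNA libraries, and all of them come from the 1 line.

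Hox genes encode homeodomain transcription factors that give cells their position along the head-to-tail axis. Within a cluster, genes at the 3′ end are typically activated earlier in the embryo and act further towards the head than genes at the 5′ end, an arrangement called collinearity. RA, a vitamin A derivative that binds nuclear receptors on DNA, is known to switch on 3′ Hox genes in ES cells and in the hindbrain. On the GRCm38 genome (GENCODE M21) all members lie on the minus strand of chromosome 6, from Hoxa2 at chr6:52162417-52164831 to Hoxa13 at chr6:52257694-52260880. Counting from the 3′ end therefore follows the paralogue numbers.

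RefSeq promoter windows (GRCm38.p6), each with 250 bases before and 50 bases after an annotated start, were found for 8 members. The windows of Hoxa2, Hoxa5 and Hoxa7 are shown because they stand for the latest RA-treated peak among the well counted members (Hoxa2), the highest level per length (Hoxa5) and an early peak further towards the 5′ end (Hoxa7). Capitals mark the motifs searched on both strands, which were TGACAG (the core bound by Meis factors) in Hoxa2, AGGTCA (the repeat unit of sites bound by RA receptors) in Hoxa5 and TTTATG (the core bound by Cdx factors) in Hoxa7. The windows are written 5′ to 3′ on the minus strand.
Hoxa2, chr6:52164782-52165081: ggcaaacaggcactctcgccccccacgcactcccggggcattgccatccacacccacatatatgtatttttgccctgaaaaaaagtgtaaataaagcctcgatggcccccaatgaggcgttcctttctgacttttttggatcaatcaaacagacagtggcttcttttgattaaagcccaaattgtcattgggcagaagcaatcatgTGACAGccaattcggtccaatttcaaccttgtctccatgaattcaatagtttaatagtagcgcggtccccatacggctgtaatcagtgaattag
Hoxa5, chr6:52204538-52204837: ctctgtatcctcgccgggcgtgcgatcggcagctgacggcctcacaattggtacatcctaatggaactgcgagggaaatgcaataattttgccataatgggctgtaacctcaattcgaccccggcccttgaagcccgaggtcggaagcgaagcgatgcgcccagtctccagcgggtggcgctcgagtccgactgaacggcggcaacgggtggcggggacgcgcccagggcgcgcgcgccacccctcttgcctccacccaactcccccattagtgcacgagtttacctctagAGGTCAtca
Hoxa7, chr6:52218524-52218823: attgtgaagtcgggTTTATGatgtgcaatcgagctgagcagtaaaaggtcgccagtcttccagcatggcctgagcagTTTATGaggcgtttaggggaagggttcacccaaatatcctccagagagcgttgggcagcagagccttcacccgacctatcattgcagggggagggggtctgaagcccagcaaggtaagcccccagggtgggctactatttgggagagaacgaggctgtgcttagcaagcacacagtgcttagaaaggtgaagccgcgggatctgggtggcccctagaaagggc
Each motif stood once in the first 2 windows, 44 bases before the Hoxa2 start and 42 bases after the Hoxa5 start. Hoxa7 held TTTATG at -236 and -173. Among all 32851 RefSeq windows of the same length, AGGTCA was in 16.3%, TTTATG in 11.9% and TGACAG in 19.2%, so that each is a common match. A direct repeat of AGGTCA spaced by 5 bases was in 3 of these windows and in none of the members' windows.

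The unit of levels is CPM, library-size-scaled counts with TMM factors over all 45 libraries, and genes are compared with each other in CPM per kilobase of merged exons. Totals lay between 17298632 and 39688686 counts per library, and a floor of 3 counts was worth 0.0800 to 0.183 CPM, which covers counting error only. The arms were compared at each time by the quasi-likelihood test of edgeR. A call needed an adjusted p (Benjamini-Hochberg) under 0.01 together with a log2 fold change above 1 or below -1. All 8 neural progenitor markers were detected in every group, with a summed level of 616 to 642 CPM at day 2, 1615 to 1861 CPM in untreated and 1791 to 2051 CPM in RA-treated organoids at 78 h. The 6 pluripotency markers summed to 2140 to 2360 CPM at day 2 and to 489 to 595 and 266 to 548 CPM at 78 h. In 6 libraries, RA 8 h replicate 3, RA 30 h replicates 1 and 3 and the 3 untreated libraries at 30 h, 4 Y chromosome genes averaged 1.22 to 3.65 CPM against 22.9 to 89.5 CPM in the other 39, and results at 8 h and 30 h are given also without single libraries. The library numbers fall into an earlier and a later series, and at 30 h only RA replicates 2 and 3 belong to the later one, as do all libraries at 66 h and 78 h. In bulk RNA, fewer cells that express a gene and less RNA per cell cannot be told apart.

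RA treatment raised most Hoxa genes within 8 h, and the number raised reached its maximum at 18 h. Of 7 members tested at 8 h, 5 were called higher with RA, where 1.26% of all tested genes were. At 18 h 7 of 7 were called higher (8.17% of all genes), and at 30 h 6 of 7 (5.98%). The count then fell to 4 of 6 at 42 h (7.49%) and to 3 of 6 at 54 h (7.17%), at 66 h (7.06%) and at 78 h (7.66%). Hoxa9 was called lower at 54 h, where 5.99% of genes were lower, and at 66 h (4.44%). The median log2 fold change of the tested members was 3.72 at 8 h, 4.11 at 18 h, 3.56 at 30 h and 1.04 at 78 h, beside 0.02, 0.02, 0.04 and 0.00 over all tested genes. Hoxa6 and Hoxa13 were too low for the test at every time, and Hoxa10 from 42 h onwards. The filter keeps a gene that is high enough in 1 arm alone. Hoxa4 and Hoxa10 had at most 9 and 3 counts in any untreated library at 18 h and were tested through the RA-treated ones. For such members a lower call was hardly possible, and for Hoxa9 at 54 h, with at most 5 counts with RA, a higher one. With 10 counts required in every library, 3 of 3 tested members were higher at 8 h, 4 of 4 at 18 h and 3 of 3 at 30 h. The count at 8 h rested on every library: without RA 8 h replicate 3 it was 7, and without any 1 of the other libraries it was 2 or 3. At 30 h it was 5 without RA replicate 1 or 3 and 8 without replicate 2.

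**Figure D1:**
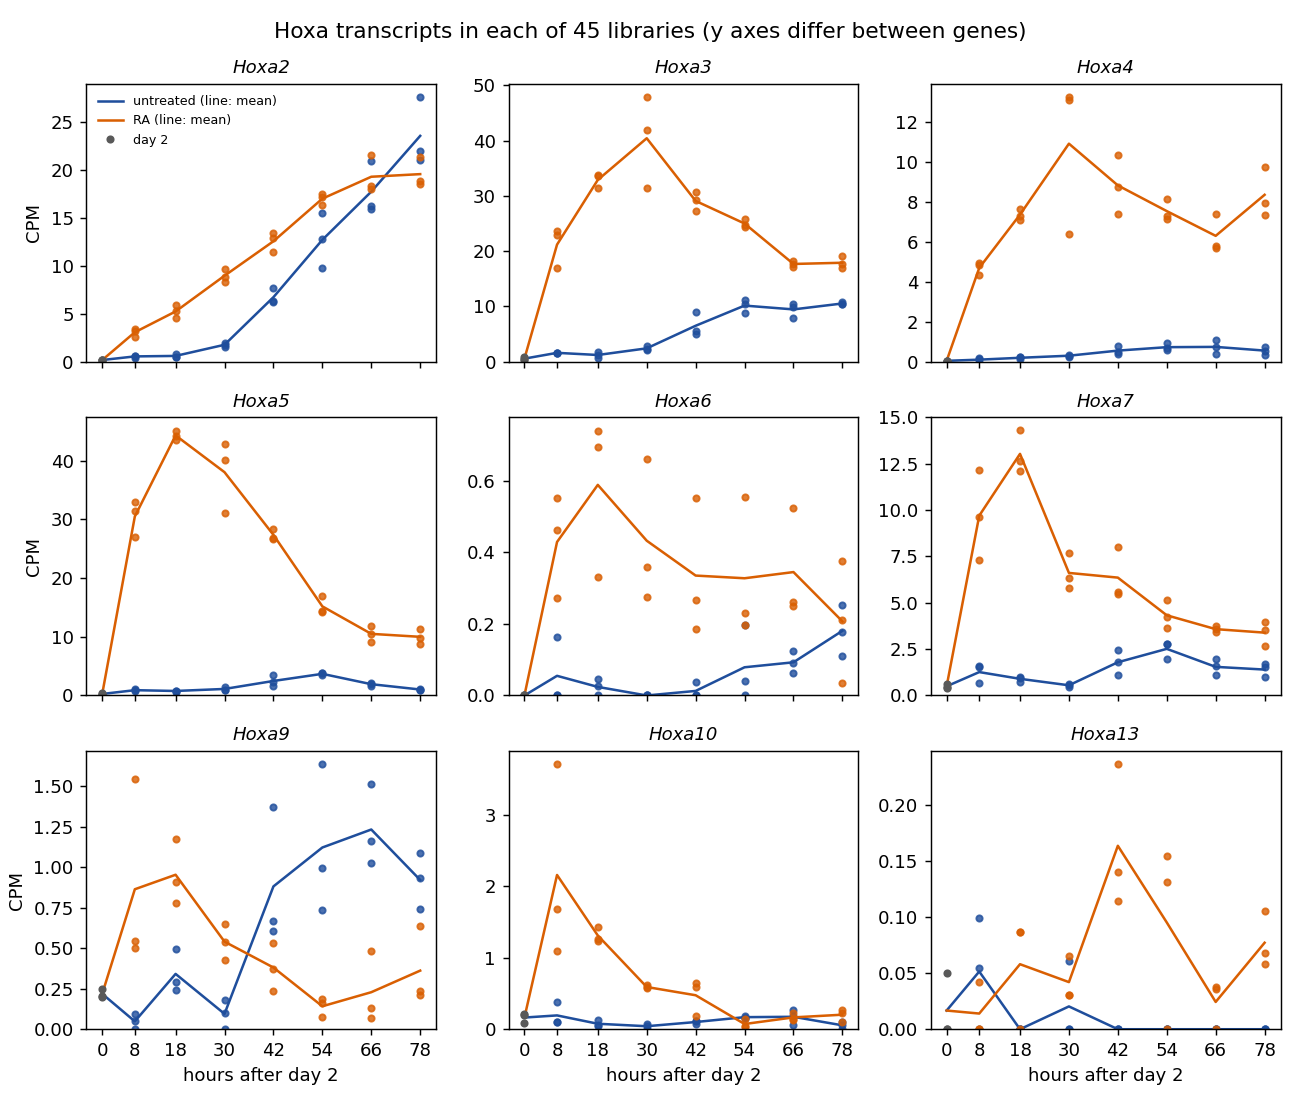
CPM (y axis) of each Hoxa gene against hours after day 2 (x axis, day 2 drawn at 0), with 1 point per library and lines through the means of 3 libraries for RA-treated (orange) and untreated (blue) organoids. RA-treated Hoxa5 peaks at 44.3 CPM at 18 h, whereas both arms of Hoxa2 are still rising after 42 h; y axes differ between genes.

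Hoxa2, which patterns the hindbrain and the skeleton of the branchial arches, was the most 3′ member and the slowest of the well counted ones. At day 2 it had 0.207, 0.150 and 0.166 CPM, and at 8 h 3.19, 3.44 and 2.597 CPM with RA against 0.439, 0.646 and 0.577 CPM without. The groups did not overlap, and the log2 fold change was 2.46 (standard error 0.26, edgeR adjusted p = 0.00182). At 18 h the RA-treated libraries had 5.25, 4.58 and 5.92 CPM and the untreated ones 0.496, 0.784 and 0.534 CPM, a log2 fold change of 3.13 (standard error 0.22, edgeR adjusted p = 1.19e-07). The means of both arms were higher at each later time, and without RA they were 0.605 ± 0.156 CPM at 18 h and 1.77 ± 0.186 CPM at 30 h (SD, n = 3 each). Means were 12.6 ± 1.05 CPM with RA and 6.74 ± 0.790 CPM without at 42 h (SD, n = 3 each). At 66 h the RA-treated libraries had 18.3, 18.0 and 21.6 CPM and the untreated ones 16.3, 16.0 and 21.0 CPM, and the arms overlapped. At 78 h they held 18.6, 18.8 and 21.3 CPM with RA and 21.1, 22.0 and 27.7 CPM without. The log2 fold change was 0.13 at 66 h (95% interval -0.09 to 0.35) and -0.25 at 78 h (-0.45 to -0.06, edgeR adjusted p = 0.0561), and neither was called. In Hoxa2, 15.04% of exon bases are shared with the same-strand gene Gm28308, which had 0 counts in all 45 libraries.

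Hoxa3 (chr6:52169062-52213336), needed for the thymus, parathyroid and posterior hindbrain, rose sooner and stayed above the untreated arm. RA-treated libraries had 22.9, 23.6 and 17.0 CPM at 8 h, and untreated ones 1.59, 1.59 and 1.64 CPM. At the peak of the means, 30 h, they had 47.9, 31.4 and 42.0 CPM with RA and 2.86, 2.26 and 2.14 CPM without. RA replicate 2, the one RA-treated library at 30 h in the higher range of Y chromosome genes, was the lowest of the 3, at the level of the RA-treated libraries at 18 h (33.6, 31.4 and 33.8 CPM). The log2 fold change was 3.72 at 8 h, 4.79 at 18 h (standard error 0.15, edgeR adjusted p = 4.2e-11) and 4.05 at 30 h. By 78 h the libraries had 17.7, 16.9 and 19.2 CPM with RA and 10.4, 10.4 and 10.9 CPM without. These groups were still apart, but the log2 fold change of 0.78 (standard error 0.08, edgeR adjusted p = 2.19e-05) lay under the size needed for a call. The first exons of its long transcripts lie among Hoxa6 and Hoxa7, and 25.4% of its exon bases are overlapped by genes on the opposite strand; the strand setting of the counting is not given in the sources used here.

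Hoxa4 (chr6:52189671-52191753), which acts in the posterior hindbrain and neck, was almost silent without RA and kept its response to the end. At 8 h it had 4.82, 4.35 and 4.92 CPM with RA, and 0.165, 0 and 0.144 CPM without. At 30 h the RA-treated libraries had 13.1, 6.37 and 13.3 CPM and the untreated ones 0.301, 0.244 and 0.357 CPM. The low value was again RA replicate 2, and the other 2 libraries, of different library series, were about as high as each other. At 78 h it had 7.96, 7.34 and 9.77 CPM with RA and 0.755, 0.357 and 0.558 CPM without. The arms never overlapped, and the log2 fold change was 5.45 at 8 h (standard error 0.49, edgeR adjusted p = 0.000861), 5.14 at 30 h and 3.94 at 78 h (standard error 0.23, edgeR adjusted p = 1.68e-07). Of its exon bases, 16.0% are overlapped on the opposite strand by Gm29430.

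Hoxa5 (chr6:52201754-52204587), a regulator of lung and cervical development, reached the highest level per length of all members. Day 2 libraries had 0.332, 0.400 and 0.0415 CPM, which is 8, 8 and 1 counts. At 8 h RA-treated libraries already had 31.4, 33.0 and 27.1 CPM against 1.10, 0.745 and 0.866 CPM without RA. At 18 h they had 45.1, 44.2 and 43.6 CPM against 0.812, 0.825 and 0.667 CPM. The RA-treated replicates at 18 h differed little from each other, and the log2 fold change was 5.88 (standard error 0.10, edgeR adjusted p = 5.09e-13), the largest of any tested member at that time. The level then declined to 27.4 ± 0.939 CPM at 42 h (SD, n = 3) and to 9.82, 8.77 and 11.4 CPM at 78 h. Untreated organoids reached 3.76, 3.43 and 3.86 CPM at 54 h and returned to 0.971, 1.07 and 1.00 CPM at 78 h. With the denominator moving, the log2 fold change fell to 2.02 at 54 h and was 3.31 at 78 h (standard error 0.16, edgeR adjusted p = 3.69e-08).

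Hoxa6 (chr6:52206288-52208722) and Hoxa7 (chr6:52214491-52221854), which act in the trunk, followed the timing of Hoxa5. Hoxa6 stayed below 1 CPM in every library, with 16, 8 and 17 counts in the RA-treated libraries at 18 h against 1, 0 and 1 without. The ratio of summed counts per depth at 18 h was 24.5 (95% counting interval 6.36 to 209). At 30 h Hoxa6 had 42 counts with RA against 0 without. Its ratio there was 9.07 with 3 counts taken for the untreated group, and the lower end of the 95% counting interval was 7.06. DESeq2, which tested it, called it higher at 18 h (log2 fold change 4.61, adjusted p = 0.000704), and at 78 h the summed counts were 20 and 17. Hoxa7 was well counted. It had 12.2, 9.65 and 7.29 CPM with RA at 8 h and 0.658, 1.54 and 1.59 CPM without. At 18 h it had 12.7, 12.1 and 14.3 CPM with RA and 0.993, 0.743 and 0.960 CPM without. The arms were apart at both times, and the log2 fold change was 3.85 at 18 h (standard error 0.15, edgeR adjusted p = 3.35e-10). At 54 h it had 4.24, 3.61 and 5.13 CPM with RA and 1.97, 2.79 and 2.78 CPM without, a difference under the size needed for a call (log2 fold change 0.75, standard error 0.20, edgeR adjusted p = 0.00914). It was called again at 66 h and at 78 h, where the log2 fold change was 1.30 (standard error 0.23, edgeR adjusted p = 0.00082). Of its exon bases, 20.4% are overlapped on the opposite strand by Hoxaas3.

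Hoxa9 (chr6:52223100-52231089), a regulator of blood progenitors and of posterior trunk identity, was the member whose response turned from higher to lower with RA. At 18 h it had 0.781, 0.907 and 1.17 CPM with RA and 0.496, 0.289 and 0.240 CPM without. The groups did not overlap, and the log2 fold change of 1.54 (standard error 0.37, edgeR adjusted p = 0.00323) was called. At 54 h untreated levels were 0.734, 0.998 and 1.64 CPM against 0.0770, 0.164 and 0.185 CPM with RA. The log2 fold change at 54 h was -2.97 (standard error 0.47, edgeR adjusted p = 0.000329). It was -2.43 at 66 h (edgeR adjusted p = 0.00188) and -1.28 at 78 h (edgeR adjusted p = 0.0203), where the RA-treated libraries had 0.637, 0.239 and 0.210 CPM and the untreated ones 0.935, 0.743 and 1.09 CPM. The call at 18 h was lost with DESeq2 (adjusted p = 0.0143), in 1 fit of all 45 libraries (adjusted p = 0.0169) and with the replicate block (adjusted p = 0.0104). It was lost also without RA replicate 2, RA replicate 3 or untreated replicate 3 (adjusted p = 0.0106, 0.0230 and 0.0255). At 66 h it was lost without RA replicate 2 (adjusted p = 0.0118) or without untreated replicate 2 (adjusted p = 0.0127), and at 78 h Hoxa9 was called without RA replicate 1 (log2 fold change -2.00, adjusted p = 0.00149).

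Hoxa10 (chr6:52231197-52240854), known for its role in the uterus and the lumbar skeleton, was highest at the first time measured. RA-treated libraries had 1.09, 1.68 and 3.70 CPM at 8 h, where untreated ones had 0.384, 0.0994 and 0.0962 CPM. The highest value, and also the highest Hoxa9 value at 8 h (1.55 against 0.503 and 0.544 CPM), was in RA replicate 3, the library low in Y chromosome genes. In that library Hoxa2, Hoxa3, Hoxa5 and Hoxa7 were the lowest of the 3, and Hoxa4 was the highest (4.92 against 4.82 and 4.35 CPM). The log2 fold change of Hoxa10 at 8 h was 3.47 (standard error 0.70, edgeR adjusted p = 0.0235), and without RA replicate 3 it was 2.84 (edgeR adjusted p = 0.000486). At 18 h it had 1.26, 1.24 and 1.44 CPM with RA and 0.135, 0.0413 and 0.0534 CPM without, a log2 fold change of 4.11 (standard error 0.43, edgeR adjusted p = 5.06e-06). At 78 h it was down to 0.232, 0.273 and 0.105 CPM with RA, or 8, 8 and 3 counts. Hoxa13, which shapes digits and the hindgut, had at most 6 counts in any library. Its RA-treated libraries at 42 h had 3, 3 and 6 counts and the untreated ones 0. The ratio there was 4.35 with 3 counts taken for the untreated group, and the lower end of the 95% counting interval was 3.02. Without a filter, Hoxa13 was not called at 42 h (edgeR adjusted p = 0.0139). At 8 h, 18 h and 30 h its RA-treated groups summed to 1, 4 and 4 counts, so that no timing was detectable at this depth.

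**Figure D2:**
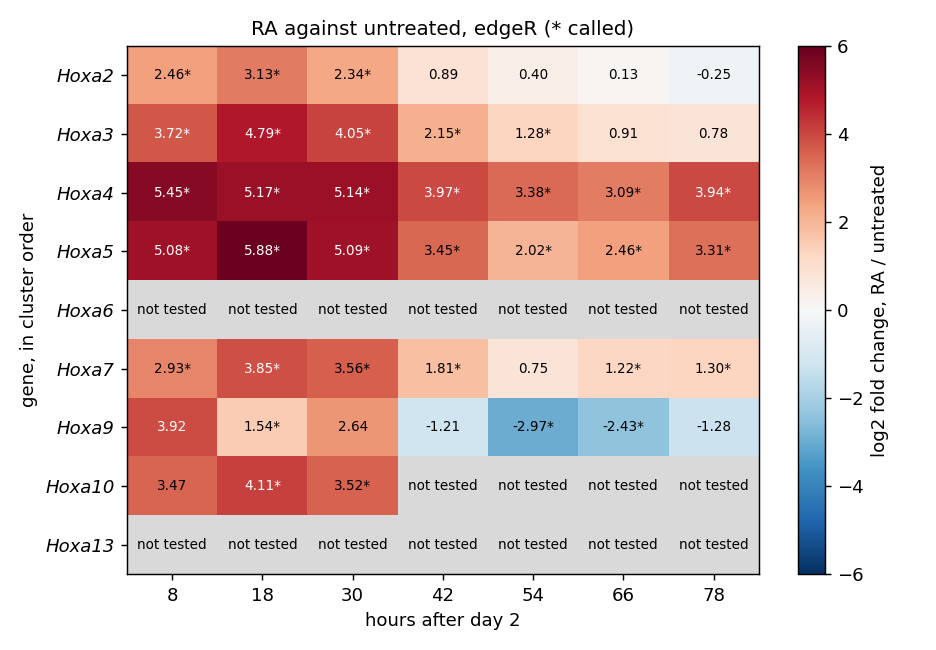
Log2 fold change of RA-treated against untreated organoids (colour and number) for each gene in cluster order (rows) and each time after day 2 (columns), from edgeR with 3 libraries per group; an asterisk marks a call and grey a gene too low to test. Hoxa4 and Hoxa5 stay above 2 throughout, Hoxa2 falls from 3.13 at 18 h to -0.25 at 78 h, and Hoxa9 is at -2.97 at 54 h.

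Within the RA-treated arm and with all libraries, the first 8 h was the one step in which members that passed the filter were called. The mean at 8 h was between 68.8% and 100% of the peak for Hoxa5, Hoxa6, Hoxa7, Hoxa9 and Hoxa10, 52.4% for Hoxa3, 43.0% for Hoxa4, 15.7% for Hoxa2 and 8.55% for Hoxa13. Against day 2, 6 of 7 tested members were called higher at 8 h, where 2.65% of all tested genes were. At day 2 Hoxa2, Hoxa4, Hoxa5 and Hoxa10 had at most 5, 1, 8 and 5 counts in any library. They passed the filter through their RA-treated libraries, so that a lower call was hardly possible. With 10 counts required in every library 0 members were tested. Log2 fold changes were 4.11 for Hoxa2, 5.26 for Hoxa3, 6.59 for Hoxa4, 6.92 for Hoxa5, 4.30 for Hoxa7 and 3.70 for Hoxa10. Hoxa9 had 1.95 (edgeR adjusted p = 0.0467) and was not called. In the later single steps 0 members were called in either direction by edgeR or by DESeq2 on the same libraries. Of the members, edgeR tested 8 in each of these steps up to 42 h and 5 in each step after it. Of all tested genes, 2.13% were called from 8 to 18 h, 2.25% from 18 to 30 h, 0.118% from 30 to 42 h, 0.782% from 42 to 54 h, 0.696% from 54 to 66 h and 0.149% from 66 to 78 h. At an unadjusted p under 0.05 in edgeR, 4 of 8 members were higher in the first of these steps. In the next, 3 of 8 were lower and 1 was higher. The share of all genes at this threshold was not taken, so that these counts have nothing to be compared with. Among the members that came closest, Hoxa10 from 18 to 30 h had a log2 fold change of -1.13 (edgeR adjusted p = 0.0280), Hoxa7 in the same step -0.96 (edgeR adjusted p = 0.00931) and Hoxa5 from 42 to 54 h -0.86 (edgeR adjusted p = 0.000864). Hoxa10, too low for the test from 42 to 54 h, had -2.67 there without a filter (edgeR adjusted p = 0.00316). Calls in the steps into and out of 30 h depended on RA 30 h replicate 2. From 18 to 30 h, 206 genes were higher and 175 lower with it, and 641 and 1280 without it. Hoxa10 was then called lower (log2 fold change -1.18). From 30 to 42 h the numbers were 17 and 3 with it, and 723 and 349 without it, with 0 members called. Leaving out any other library gave fewer calls than all libraries. Spans of several steps, chosen after the levels were seen, were compared as well.

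Over longer spans the members parted. From 18 h to 42 h with RA, Hoxa2 was called higher (log2 fold change 1.26, standard error 0.12) and 3 of 8 tested members lower, where 8.07% of all genes were lower: Hoxa7 (-1.03), Hoxa9 (-1.30) and Hoxa10 (-1.41). These 3 calls were fragile: Hoxa9 and Hoxa10 were not called by DESeq2 (adjusted p = 0.0432 and 0.0120), and leaving out 1 library gave between 0 and 3 calls, with 0 without RA 18 h replicate 3 or RA 42 h replicate 1. From 18 h to 78 h, 1 of 7 was higher (11.5% of genes) and 3 of 7 were lower (12.2% of genes). Hoxa2 had a log2 fold change of 1.88 (standard error 0.12), Hoxa5 -2.17 (standard error 0.09), Hoxa7 -1.96 (standard error 0.15) and Hoxa10 -2.67 (standard error 0.35, edgeR adjusted p = 2.47e-05). Hoxa3 fell by 0.90 on the log2 scale (edgeR adjusted p = 4.55e-07), under the size needed for a call, and Hoxa4 had 0.16 (95% interval -0.10 to 0.41). Without RA 78 h replicate 1, 5 members were lower, Hoxa9 among them (log2 fold change -2.07, edgeR adjusted p = 0.000778).

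Over the 8 members other than Hoxa13, the time of the highest mean followed the gene order in the RA-treated arm, from 5′ to 3′. Hoxa10 was highest at 8 h, Hoxa5, Hoxa6, Hoxa7 and Hoxa9 at 18 h, Hoxa3 and Hoxa4 at 30 h and Hoxa2 at 78 h. The level of 50% of the peak, read by linear interpolation between means, was reached after 32.7 h by Hoxa2, 7.62 h by Hoxa3, 10.9 h by Hoxa4, 5.79 h by Hoxa5, 5.49 h by Hoxa6, 5.23 h by Hoxa7, 3.20 h by Hoxa9 and 3.67 h by Hoxa10. With no time between day 2 and 8 h, the values under 8 h rest on the line between these points and their order on the 8 h level relative to the peak. Spearman's rank correlation with cluster order over these 8 genes was -0.93 for the hour of the peak and -0.95 for the hours to 50%, as a description over genes measured in the same libraries. The untreated arm had the same sign, with -0.69 and -0.55 over the same 8 genes. Untreated Hoxa6 and Hoxa10 rest on 17 and 11 counts at their maxima, and Hoxa10 was at 84.6% of its maximum already at day 2. With Hoxa13, whose RA-treated peak at 42 h rests on 12 counts, the RA-treated values were -0.46 and -0.37 over 9 genes. The call itself gave no such order, since Hoxa2, Hoxa3, Hoxa4, Hoxa5 and Hoxa7 were all first called higher at 8 h, and Hoxa9 and Hoxa10 at 18 h (edgeR adjusted p = 0.0302 and 0.0235 at 8 h). The hour of the Hoxa2 peak was 66 h with scaling by library totals, and that of Hoxa9 was 8 h without RA 18 h replicate 3 or without RA 8 h replicate 1 or 2. With RA at 30 h, the high values of Hoxa3 and Hoxa4 were in replicates 1 and 3, both low in Y chromosome genes. Replicate 2 had 31.4 CPM of Hoxa3 and 6.37 CPM of Hoxa4, below the 18 h means of 32.9 and 7.37 CPM. Hoxa10 at 8 h had 1.09 and 1.68 CPM outside replicate 3, against a mean of 1.31 CPM at 18 h. These peak hours of Hoxa3, Hoxa4 and Hoxa10 stayed the same with any 1 library left out. For Hoxa3 and Hoxa4 this cannot settle the point, since RA replicate 1 or 3 always remained at 30 h. Replicate 2 was also below the 42 h mean of Hoxa4, 8.83 CPM.

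The part of the peak that remained at 78 h with RA separated the members. Hoxa2 was at 100% of its peak, Hoxa4 at 76.6% and Hoxa3 at 44.3%. Hoxa5 kept 22.6%, Hoxa7 26.0% and Hoxa10 9.43%. Hoxa6 and Hoxa9, both below 100 counts at their peaks, had 35.2% and 37.9%, with an SD of 29.1 and 25.0 percentage points over the 3 libraries at 78 h. The share of Hoxa10 was 14.7% without RA 8 h replicate 3, the library with its highest value, and 13.8% with medians in place of means. That of Hoxa4 was 63.4% without RA 30 h replicate 2 and 60.7% with medians.

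**Figure D3:**
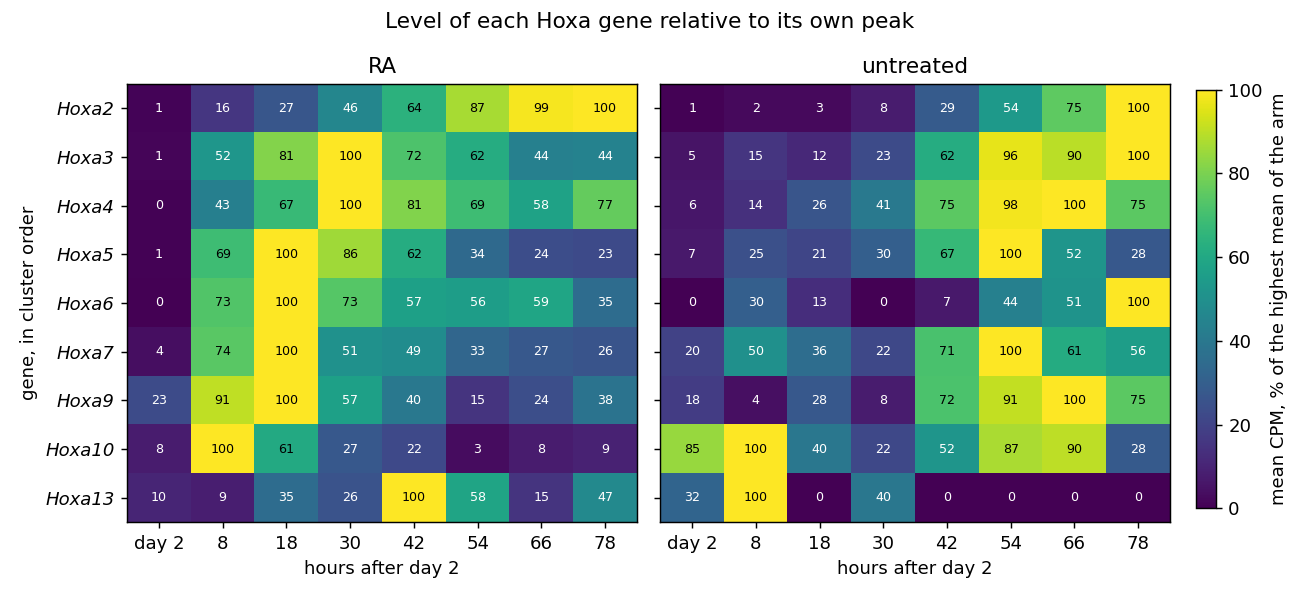
Mean CPM of each gene (rows, in cluster order) as a percentage of the highest mean of its arm (colour and number) at day 2 and each later time (columns) for RA-treated and untreated organoids. With RA the maximum lies at 8 h for Hoxa10 and at 78 h for Hoxa2; without RA no member above 1 CPM peaks before 54 h, and untreated Hoxa10 and Hoxa13 rest on 11 and 3 counts at their maxima.

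**Figure D4:**
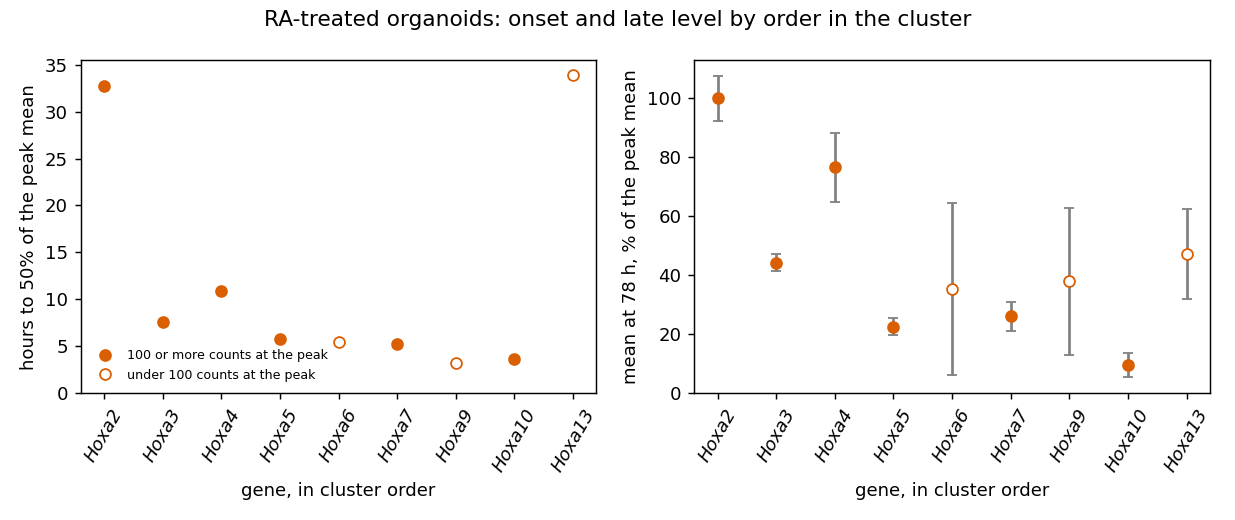
Hours to 50% of the peak mean (left) and the mean at 78 h as a percentage of the peak mean (right, bars give the SD of 3 libraries at 78 h) in the RA-treated arm, for the genes in cluster order. Hoxa2 stands at 32.7 h and 100%, and Hoxa10 at 3.67 h and 9.43%; open points had under 100 counts at the peak.

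Per kilobase of exon, the RA-treated peaks ranged from 0.0661 to 23.6 CPM. Hoxa5 led with 23.6 CPM per kb, followed by Hoxa2 with 11.03, Hoxa4 with 6.85, Hoxa3 with 6.72 and Hoxa7 with 4.53. Hoxa6 and Hoxa10 reached 0.673 and 0.659 CPM per kb, Hoxa9 0.171 and Hoxa13 0.0661. The neighbours Hoxa4 and Hoxa3 lay within 1 SD of each other, as did Hoxa6 and Hoxa10. In untreated organoids the order was different at its head, with peaks of 13.3 CPM per kb for Hoxa2, 1.96 for Hoxa5 and 1.75 for Hoxa3. Exon lengths count all annotated transcripts, which is 5580 bases for Hoxa9 and 874 for Hoxa6, and levels per kb of genes with many transcripts are therefore lower than those of their main transcript.

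Without RA the cluster was activated later, and its members other than Hoxa7 reached 50% of their highest mean after 30 h wherever that mean was above 0.5 CPM. Of 5 members tested between day 2 and 78 h, 5 were called higher, where 20.3% of all genes were. Hoxa2, Hoxa5 and Hoxa9 had at most 5, 8 and 6 counts in any day 2 library and passed the filter through their 78 h libraries. A lower call was hardly possible for them, and with 10 counts required in every library 0 members were tested. Hoxa2 had a log2 fold change of 7.03 (standard error 0.21, edgeR adjusted p = 3.82e-14), Hoxa3 4.23, Hoxa5 2.00, Hoxa7 1.48 and Hoxa9 2.05 (edgeR adjusted p = 0.000165). Within the later library series day 2 has replicate 3 alone, so that a fit there has no spread in that arm and rests on the spread of the untreated libraries; it called 5 of 6 tested members higher, and Hoxa5 had 4.47, with 1 count in the day 2 library. Hoxa2 and Hoxa3 were at their maximum at 78 h, Hoxa4 and Hoxa9 at 66 h and Hoxa5 and Hoxa7 at 54 h. The level of 50% of the maximum was passed at 52.1 h by Hoxa2, 38.4 h by Hoxa3, 33.3 h by Hoxa4, 36.5 h by Hoxa5 and 38.0 h by Hoxa9, but already at 7.96 h by Hoxa7, so that the most 3′ of these members was the last. For Hoxa3, Hoxa4, Hoxa5 and Hoxa9 the time was read on the line from the 30 h mean to the 42 h mean. The untreated libraries at 30 h are all low in Y chromosome genes, unlike those at 18 h and 42 h. From 18 h to 30 h the untreated mean fell from 0.899 to 0.549 CPM for Hoxa7 and from 0.342 to 0.0950 CPM for Hoxa9. It rose for Hoxa2, Hoxa3, Hoxa4 and Hoxa5. The part of this library difference in the times was not tested. The untreated summed level of all 9 members lay between 1.82 and 2.05 CPM at day 2 and between 35.7 and 43.0 CPM at 78 h, when it was 55.1 to 65.8 CPM with RA.

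The RA effect at 78 h was compared with that at 18 h in 1 model of the 12 libraries. The effect was smaller at 78 h in 6 of 8 tested members, where 7.04% of all genes were called lower. The difference on the log2 scale was -3.41 for Hoxa2, -4.03 for Hoxa3, -2.60 for Hoxa5, -4.13 for Hoxa6, -2.58 for Hoxa7 and -2.85 for Hoxa9. Hoxa4 had -1.25 (95% interval -2.05 to -0.45, edgeR adjusted p = 0.0214) and Hoxa10 -2.22 (-4.31 to -0.13), and neither was called. The call of Hoxa6 was lost in 9 of 12 fits with 1 library left out (adjusted p from 0.0101 to 0.0246), and the other 5 were called in each of them. For Hoxa2 the levels of both arms were higher at 78 h than at 18 h, for Hoxa3 the RA-treated level was lower and the untreated one higher, and for Hoxa5 the untreated levels at 18 h and 78 h were 0.768 and 1.02 CPM on average and the RA-treated ones 44.3 and 9.99 CPM. The 78 h libraries are all of the later library series and the 18 h libraries of the earlier one, but within each time both arms are of the same series.

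Other Hox genes and regulators were summarized over lists of their symbols. For comparison, 1.26% of all tested genes were called higher at 8 h, 8.17% at 18 h and 7.66% at 78 h. At 18 h 455 of 16508 genes were called lower, and at 78 h 688 of 17059. Of the Hoxb genes, 8 of 9 tested were called higher with RA at 8 h, 9 of 9 at 18 h and 6 of 9 at 78 h (1 lower), with a median log2 fold change of 5.47 at 18 h. Of the 9 Hoxc and 9 Hoxd genes, 4 and 3 were high enough to test at 18 h, and 2 of each were higher and 1 Hoxd gene lower. Of the Hox cofactors (Meis, Pbx and Pknox genes), which bind DNA together with Hox proteins, 5 of 9 were higher at 18 h and 0 of 9 at 78 h, also 0 lower. The 0 of 9 at 78 h is near the share over all genes. Of 17 genes of RA signalling, which hold the receptors and the enzymes that make and degrade RA, 9 were higher and 1 lower at 18 h, and 2 were higher and 4 lower at 78 h. Both tested Cdx genes, which activate trunk Hox genes, were higher at 18 h. The median over 16 Polycomb and trithorax genes, which keep Hox genes silent or active, was -0.09 at 18 h with 0 called. Of a list of 7 noncoding RNAs, 6 named for the Hoxa cluster and Haglr of the Hoxd cluster, 5 were tested and 5 were higher at 18 h, and they overlap members on the opposite strand in part.

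The genes most like each member were taken by Pearson's r of log2(CPM + 1) over the 45 libraries among 15993 genes, as a description. Hoxa2 was most like Hoxaas2 (r = 0.98), which overlaps exons of Hoxa3, but not of Hoxa2, on the opposite strand. Hoxa3 was most like Zfp703 (0.98), Hoxa4 Rarb, a receptor of RA (0.98), and Hoxb4 (0.98), and Hoxa5 Ski (0.97) and Adgra2 (0.96). Hoxa6 and Hoxa7 were also most like Adgra2 (0.84 and 0.95). The best matches of Hoxa9, Hoxa10 and Hoxa13 were Casr (0.73), Cdk15 (0.89) and Spesp1 (0.74). Among the members, Hoxa5 and Hoxa7 had an r of 0.96 and Hoxa2 and Hoxa10 of -0.09 over the same libraries.

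Markers of other cell types moved with RA beside the Hoxa genes. The 8 forebrain and midbrain markers summed to 239 to 270 CPM in untreated and 27.8 to 37.8 CPM in RA-treated organoids at 18 h, and to 74.7 to 75.5 and 22.5 to 31.0 CPM at 78 h, although of 5 tested at 18 h 3 were called higher and 1 lower. The 8 endoderm markers summed to 2.68 to 3.11 CPM without and 16.0 to 18.8 CPM with RA at 18 h, with 1 of the 8 at 0 in each group. Of 4 tested at 18 h, 4 were higher. Beside these marker counts, 8.17% of all tested genes were called higher at 18 h and 455 of 16508 lower. Mesoderm markers summed to 37.0 to 41.4 CPM without and 59.3 to 66.9 CPM with RA at 18 h. They were at 10.9 to 12.02 and 26.6 to 32.1 CPM at 78 h. The 6 neuron markers were lower in sum with RA at 18 h, with 201 to 206 CPM without and 161 to 168 CPM with it, and at 42 h (246 to 283 and 115 to 125 CPM), but higher at 78 h (289 to 303 and 362 to 392 CPM). Neural crest markers were likewise lower at 18 h (54.0 to 55.6 without and 9.81 to 12.8 CPM with RA) and higher at 78 h (19.1 to 21.1 and 29.7 to 38.0 CPM). Their part in the Hoxa levels was not tested.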

How the data were processed

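Organoids were profiled by polyadenylated RNA sequencing with a directional kit and 75-base single reads. The authors trimmed reads with Trim Galore 0.5.0, removed abundant sequences with Bowtie2 2.3.4.1, aligned to GRCm38 (Ensembl release 94) with STAR v2.6.0c and counted reads per gene with featureCounts (Subread 1.6.2); the deposited values are these raw counts, neither normalized nor pooled, and the strand setting and the handling of multiply mapped reads are not given in the sources used here. Columns were matched to samples by the library number in the titles, and 0 columns lacked a sample.

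From these counts, edgeR 4.0.16 in R 4.3.3 (TMM, filterByExpr with a minimum count of 10 and total of 15, glmQLFit, glmQLFTest) was run on the 6 libraries of each comparison, and on 12 for the interaction. Adjusted p-values are Benjamini-Hochberg over all tested genes. Standard errors are the log2 fold change divided by the square root of F, and 95% intervals assume a normal error. The 3 biological replicates of a group are separate samples per the study's methods, and all 45 pairs of replicates differed by more than counting noise (lowest chi-square per gene 1.97). Alternatives were RLE factors, library totals, no filter, 10 counts in every library, DESeq2 1.42.0, 1 fit of all 45 libraries, a prior count of 2, other thresholds, the library number series, a replicate block and each library left out. The comparisons from 18 h to 42 h and 78 h and the series alternatives outside 30 h were chosen after the data were seen. Equal replicate numbers correlated above 0.1 in every pair at 66 h only (0.52, 0.21 and 0.25).

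All 9 members are named, with the 3 genes most correlated with each as candidates for the comparison of patterns. Members and lists were chosen with earlier results of these data known. The scripts were tested on simulated counts. Python 3.11.15 was used for levels, promoters and figures. Organoid shape was not analysed here.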

Additional observations from a re-analysis of the deposited data

Results flagged for a closer look

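For 6 members the response to RA at 78 h was not that at 18 h, by a test of the difference itself, an interaction term in edgeR over the 12 libraries of both times. The effect at 78 h minus that at 18 h was -3.41 for Hoxa2, -4.03 for Hoxa3, -2.60 for Hoxa5, -4.13 for Hoxa6, -2.58 for Hoxa7 and -2.85 for Hoxa9 on the log2 scale, with adjusted p from 7.69e-11 for Hoxa3 to 0.00755 for Hoxa6. For Hoxa9 the effect had opposite signs at the 2 times, 1.54 at 18 h and -1.28 at 78 h, the latter short of a call. The Hoxa6 call was lost in 9 of 12 fits with 1 library left out (adjusted p from 0.0101 to 0.0246), which leaves 5 members. Hoxa6 rests on 41 and 2 counts at 18 h and 20 and 17 counts at 78 h. Groups of 3 libraries were not tested for single libraries that stand apart.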

How the results depend on the processing

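Of the counts of members called, 289 of 306 values under other settings and 213 of 228 with 1 library left out stayed within 1.5 times the value given. Counts of 0 that stayed at 0 are among these, as in most of the later single steps with RA, and they raise both totals. Requiring 10 counts in every library gave 3 higher at 8 h, 4 at 18 h and 3 at 30 h, 0 lower at 54 h and 66 h and 1 lower from RA 18 h to 42 h, since it leaves out low genes, and no member could be tested against day 2. With a replicate block, 2 were higher at 8 h (Hoxa2, Hoxa4 and Hoxa7 with adjusted p = 0.0161, 0.0101 and 0.0213), 1 was lower at 78 h (Hoxa9) and 1 lower from RA 18 h to 42 h; the replicate numbers are not known to pair the samples outside 66 h, where the block changed no call. At 18 h it gave 6 higher and at 30 h 5. An adjusted p under 0.05 without a fold minimum gave 5 higher at 54 h and 1 lower at 42 h and 78 h. Without a filter 1 member was lower at 78 h and 1, Hoxa10, from RA 42 h to 54 h, as in 1 fit of all 45 libraries. From RA 18 h to 42 h, DESeq2 and that fit gave 1 lower each.

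With 1 library left out, counts ranged from 2 to 7 higher at 8 h, 0 to 1 lower at 66 h and at 78 h, 0 to 1 lower from RA 18 h to 30 h, 0 to 3 lower from RA 18 h to 42 h and 3 to 5 lower from RA 18 h to 78 h. Fold changes that turned sign belonged to steps with values near 0, and the causes were not tested. From RA 66 h to 78 h, Hoxa2 had 0.000106 without a filter, 0.00533 in 1 fit and -0.0654 to 0.0741 with a library left out, Hoxa3 0.00254 in 1 fit and -0.0539 to 0.0246 with a library left out, and Hoxa7 -0.230 to 0.0318. With a library left out, Hoxa7 had -0.273 to 0.0476 and Hoxa10 -0.586 to 0.0640 from RA 30 h to 42 h, and Hoxa9 -0.136 to 0.863 from RA 8 h to 18 h. Low counts, as for Hoxa6 and Hoxa13, limit statements on late differences.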
